A study of Mus musculus with 4 samples.

Results

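The cells described here were chosen by a marker rule as the monocytes and macrophages of adult mouse liver, 242 barcodes out of 11981 that passed filters in the adult libraries and 27874 in all 4 libraries of the study. They were selected on their own RNA counts. A barcode entered when it had at least 300 detected genes and at most 25% mitochondrial counts, and held a unique molecular identifier (UMI, 1 counted RNA molecule) for at least 3 of 10 genes, namely Csf1r, Ccr2, Ms4a6c, Fn1, F13a1, Cx3cr1, Ms4a7, Adgre1, C1qa and Lyz2. It was left out when S100a8 and S100a9 reached 2% of its UMIs, or when Flt3, Cd79a or Cd3e had any UMI. The adult Ctrl library gave 113 such cells and the adult IHG library gave 129.

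The study sequenced single liver cells from male offspring of control (Ctrl) mothers and of mothers with intrauterine hyperglycemia (IHG), that is, raised glucose during pregnancy, and asked about hepatic inflammatory traits. The adult Ctrl group was 8 weeks old and came from control mothers. The adult IHG group had the same age and sex and came from hyperglycemic mothers, and both groups were perfused through the portal vein and freed of red cells before 10x 3′ capture. Fetal groups taken at E18.5 are used only beside the adult values. Each group is a single library pooled from 3 animals (3 pregnant mice for the fetal groups), the strain and the means of raising glucose are not given in the sources used here, and no difference below has a replicate check. No p-value is therefore given. Intervals are exact 95% intervals (Clopper-Pearson for shares, conditional Poisson for ratios) that cover counting error only, not the difference between animals.

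Monocytes are blood cells made in the bone marrow under Csf1 and other growth factors. The classical kind, high in Ly6c2 and Ccr2, enters tissue and can become a macrophage or an antigen-presenting cell of dendritic type that loads peptides on MHC class II proteins. Liver also holds a large resident macrophage, the Kupffer cell, which lines the sinusoids, clears particles and dying red cells from portal blood and is marked by Clec4f, Vsig4 and Timd4.

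The label was checked against these markers, and those of Kupffer cells were at or near 0 in the adult members. Of 11 Kupffer cell markers, 9 were at 0 UMIs in the members of each library, and the list summed to 4 UMIs in Ctrl (6.06 CPM, the level scaled to a common library total) and 3 UMIs in IHG (4.12 CPM). Clec4f, the Kupffer cell lectin receptor, was at 0 in every adult barcode kept. Taking 3 counts as the limit that a count of 0 allows, up to 2.65% of the Ctrl members and 2.33% of the IHG members could hold a UMI of Clec4f. The exact upper bounds drawn in the plot of marker detection are 3.21% and 2.82%. The same rule applied to the fetal IHG library found cells with 13125 Kupffer marker UMIs (1920 CPM), so these genes were measurable with this chemistry. In the fetal Ctrl library the sum was 44 UMIs (39.9 CPM). The adult cells are therefore not called Kupffer cells below, and the absence of Kupffer cells from these suspensions cannot be told apart from their absence in the tissue.

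The 10 genes of the rule describe what was selected and are given with no test. Lyz2, which encodes lysozyme, had a UMI in 96.5% of Ctrl and 94.6% of IHG members, and Ms4a6c, a membrane protein of monocytes, in 85.8% and 89.9%. The receptor of the growth factor Csf1, Csf1r, was detected in 68.1% and 55.8%, and Ccr2, the chemokine receptor that takes monocytes out of the marrow, in 55.8% and 59.7%. Fn1, which encodes fibronectin, was detected in 52.2% and 57.4%, F13a1, a clotting factor subunit, in 34.5% and 51.9%, and Cx3cr1, the fractalkine receptor, in 17.7% and 24.8%. The 3 genes nearer to macrophages were the scarce ones. Adgre1, which encodes the F4/80 antigen, was detected in 21.2% and 11.6%, C1qa in 11.5% and 3.88%, and Ms4a7 in 7.96% and 3.88%. In adult barcodes with Cd79a or Cd3e (B and T cells, 3038 and 4595 barcodes with median totals of 2533 and 2196 UMIs against 5173 and 5246 in the members), Lyz2 was detected in 3.03% and 2.89%, Ccr2 in 6.22% and 3.18%, Csf1r in 1.02% and 0.479%, and C1qa in none.

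**Figure D1:**
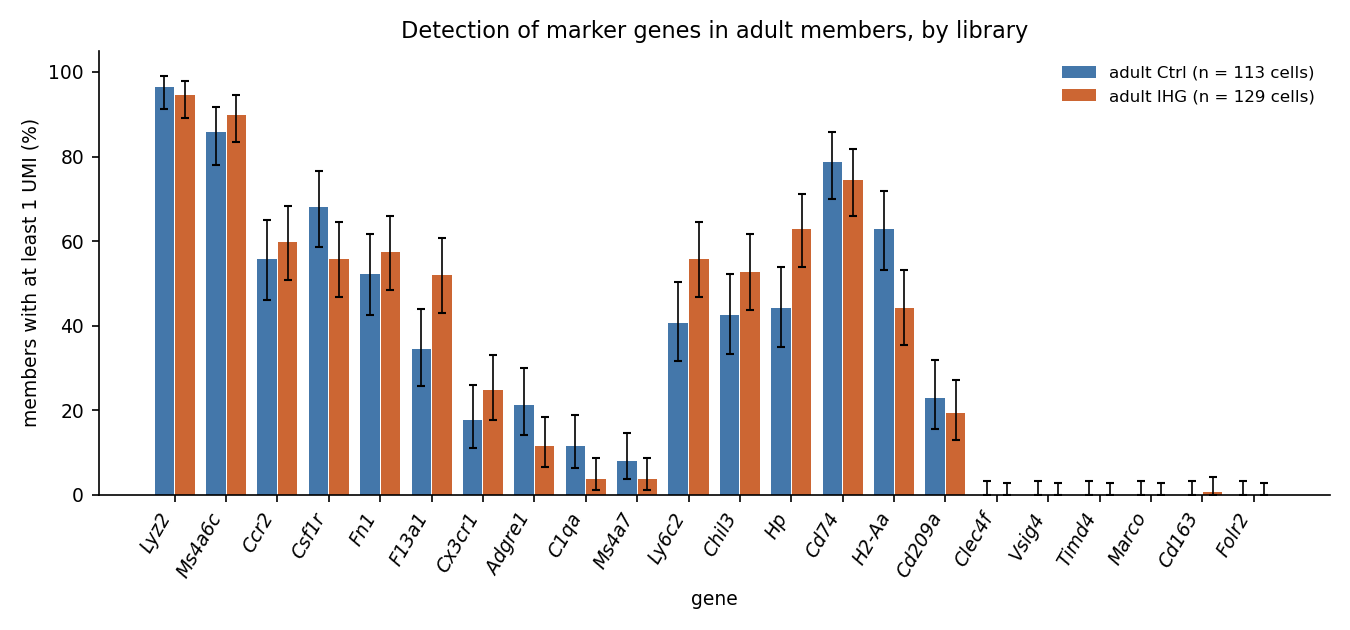
Share of members with at least 1 UMI of each gene (vertical axis, percent) in the adult Ctrl (113 cells, blue) and adult IHG (129 cells, orange) libraries; bars show exact 95% binomial intervals. Lyz2 was in 96.5% and 94.6% of cells, while the Kupffer cell genes at the right, Clec4f among them, were at or near 0.

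The values on both sides of the threshold are given as a description. Members with exactly 3 of the 10 genes numbered 36 and 39 in Ctrl and IHG, those with 4 or more 77 and 90, and 74 and 48 barcodes with exactly 2 stayed outside. Lyz2, itself a gene of the rule, stood at 447 and 448 CPM just outside, at 3047 and 3535 CPM just inside and at 12512 and 18061 CPM with 4 or more genes. Cd209a, the DC-SIGN lectin of monocyte-derived dendritic cells, ran the other way among members, with 485 and 515 CPM in cells with 3 genes and 145 and 113 CPM in cells with 4 or more. The bile duct gene Spp1 reached 14492 and 10586 CPM just outside and 6331 and 1030 CPM just inside. The limit on S100a8 and S100a9 removed 1 Ctrl barcode and no IHG barcode. Flt3 alone or with other genes removed 30 and 29, and Cd79a or Cd3e removed 17 and 13.

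The libraries held 17987173 (Ctrl) and 19366065 (IHG) UMIs, with 5195 of 5245 and 6786 of 6851 barcodes kept, and the members held 659547 and 728301 UMIs. They shared 8 barcodes, against 10 to 26 for the other pairs of libraries. Members made up 2.18% (1.80 to 2.61) of kept Ctrl barcodes and 1.90% (1.59 to 2.25) of kept IHG barcodes. The log2 ratio of IHG over Ctrl was -0.19 (-0.57 to 0.18), so no difference in share was detectable at this depth. The fetal libraries gave 119 of 7701 barcodes (1.55%) and 505 of 8192 (6.16%) under the same rule, with a log2 ratio of 2.00 (1.71 to 2.30).

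Clustering of both libraries together split the members into classical monocyte-like and monocyte-derived dendritic-like cells. A cluster of 40 Ctrl and 70 IHG cells was led by Hp (haptoglobin), Chil3 (a chitinase-like secreted protein), Trem1 and Thbs1 and detected 10 of 10 classical monocyte markers in at least 25% of its cells. Another, led by Il1rn, the decoy ligand of the interleukin-1 receptor, with Slc16a3, Cxcl2 and Fcgr1, held 20 and 22 cells and detected 9 of 10 of those markers, though none of them was among its 10 leading genes. The dendritic-like one was led by H2-Eb1, Cd209a, H2-Ab1, H2-Aa, Klrd1 and Cd74, held 48 and 35 cells, and detected 6 of 9 dendritic markers. A small cluster of 5 and 2 cells was led by Clu, Spp1, Krt18 and Krt8, genes of bile duct cells (cholangiocytes), and had a median of 10049 UMIs per cell. Whether its barcodes hold more than 1 cell was not tested. Because Flt3 detection was barred, the dendritic-like cluster cannot be told apart from conventional dendritic cells in which Flt3 was simply not captured. The 82 Ctrl and 54 IHG barcodes with Flt3 had 8267 and 4825 CPM of H2-Aa and detected Cd209a in 41 and 18 of them.

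Classical monocyte-like cells, the Hp-led and Il1rn-led clusters together, were 60 of 113 members in Ctrl (53.1%, 43.5 to 62.5) and 92 of 129 in IHG (71.3%, 62.7 to 78.9). Monocyte-derived dendritic-like cells were 48 of 113 (42.5%, 33.2 to 52.1) and 35 of 129 (27.1%, 19.7 to 35.7). The log2 ratios of these shares were 0.43 (-0.06 to 0.92) and -0.65 (-1.32 to 0.01). Of all kept barcodes, classical cells were 1.15% and 1.36% (log2 ratio 0.23, -0.25 to 0.73), and dendritic-like cells 0.924% and 0.516% (log2 ratio -0.84, -1.51 to -0.18). That last interval lay wholly below 0 and covers counting error only. H2-Aa and Hp, which are among the leading genes of the clusters, also differed between the libraries within a cluster. The clustering was therefore repeated without 690 genes, namely the genes of the rule, every listed gene and the leading genes. The dendritic-like cluster then held 53 Ctrl and 35 IHG cells (46.9% and 27.1%), of which 68 had been dendritic-like before. It also took in 13 former classical cells and all 7 cells of the cholangiocyte-gene cluster. Of the former dendritic-like cells, 14 and 1 fell into classical clusters.

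**Figure D2:**
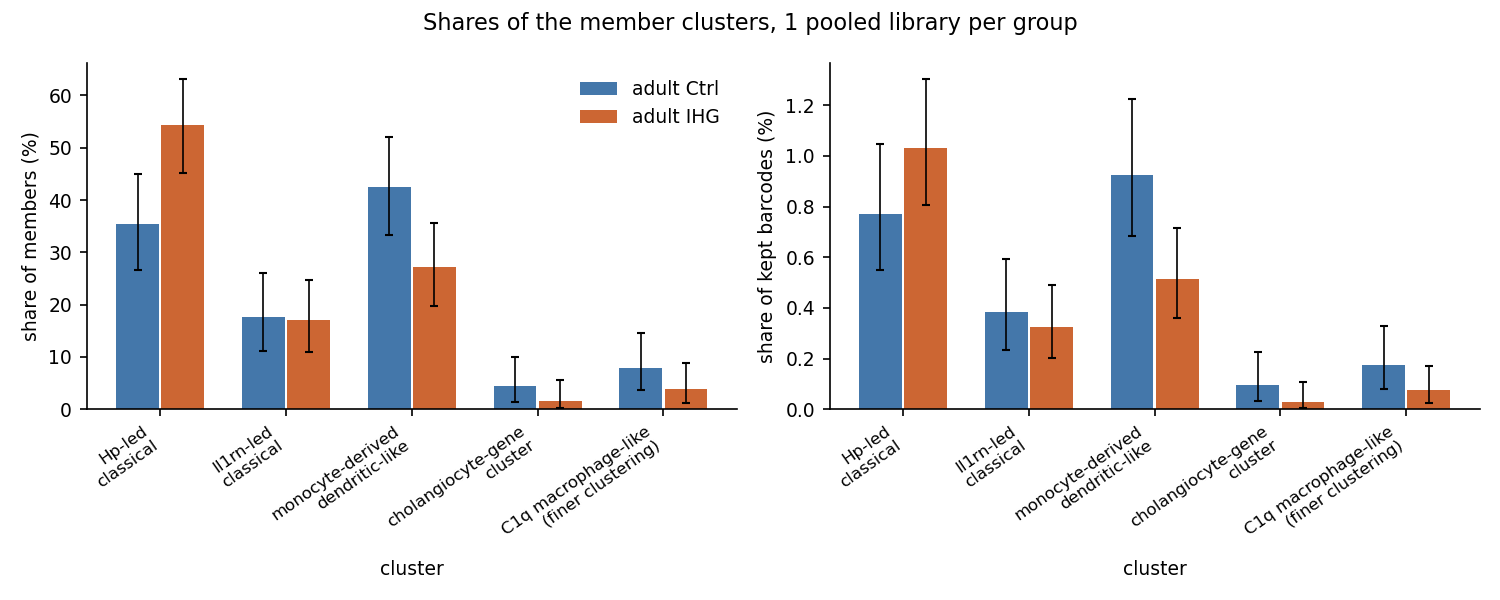
Share of members (left) and of all kept barcodes (right) in each cluster for adult Ctrl (blue) and adult IHG (orange), with exact 95% binomial intervals. Monocyte-derived dendritic-like cells were 42.5% of Ctrl and 27.1% of IHG members; C1q macrophage-like cells come from a finer clustering and lie within the dendritic-like bar.

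Lyz2, a gene of the rule, and H2-Aa, which was in neither the rule nor the genes used for clustering, describe these groups cell by cell. Lyz2 had a median of 157 UMIs per 10000 in classical cells of Ctrl (lowest 5.55, highest 474) and 182 in IHG (lowest 13.8, highest 394). In dendritic-like cells the medians were 13.1 and 3.53. H2-Aa, the alpha chain of the MHC class II protein I-A, had a median of 0 in classical cells of both libraries and of 107 (Ctrl) and 94.6 (IHG) UMIs per 10000 in dendritic-like cells. UMIs of both Ly6c2 and H2-Aa were held by 20 of 113 Ctrl and 21 of 129 IHG members. Whether these cells are in a mixed state or hold free RNA of other cells was not tested. Those with H2-Aa and no Ly6c2 numbered 51 and 36, and those with Ly6c2 and no H2-Aa 26 and 51. Chil3 and Cd209a, by contrast, were found together in 1 cell of each library, while 47 and 67 cells held Chil3 without Cd209a.

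**Figure D3:**
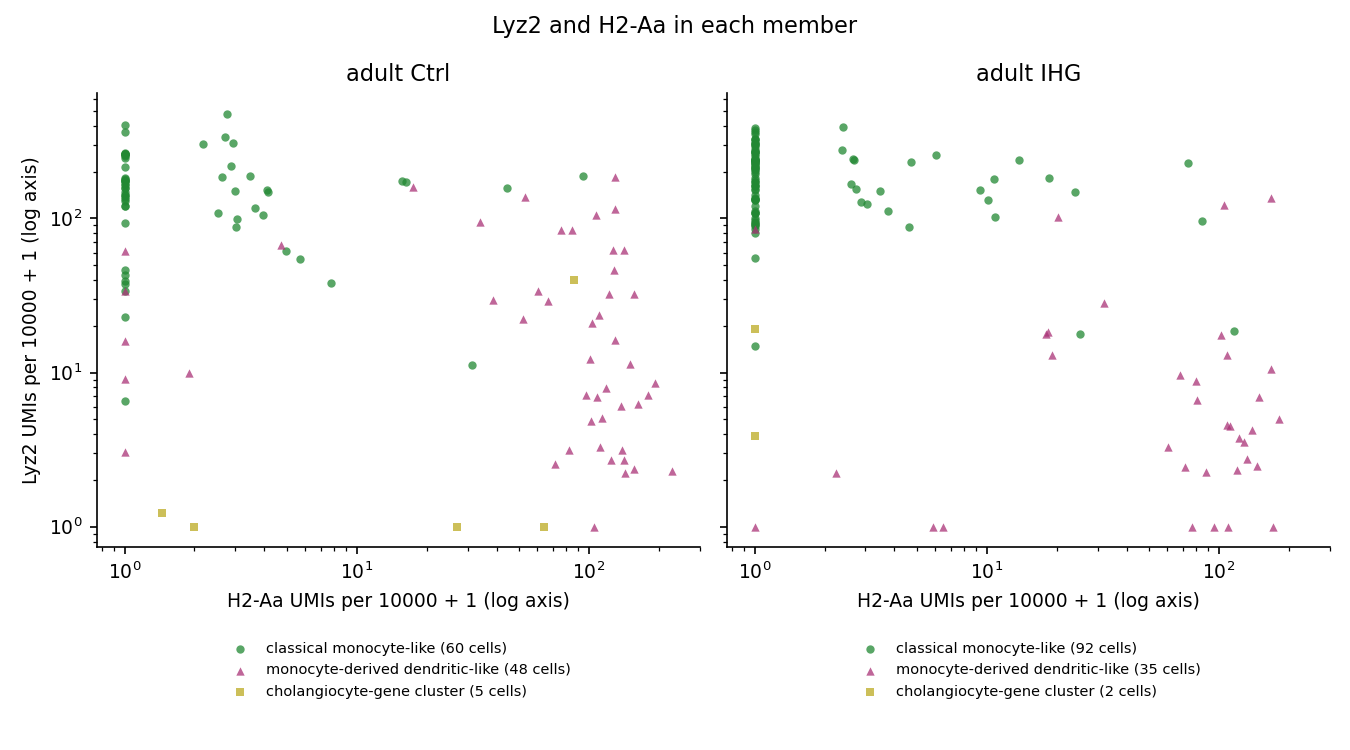
Each point is 1 member, with H2-Aa (horizontal) and Lyz2 (vertical) in UMIs per 10000 UMIs plus 1, both on log axes; colours and shapes mark the cluster groups. Most classical monocyte-like cells lie at high Lyz2 and low H2-Aa in both libraries, and dendritic-like cells at high H2-Aa with a median Lyz2 of 13.1 in Ctrl and 3.53 in IHG.

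MHC class II genes were lower in the IHG members as a whole and much less so within each cell group. H2-Aa, H2-Ab1 and H2-Eb1 encode the chains that display peptide to CD4 T cells, Cd74 the invariant chain that guards the groove, and H2-DMa and H2-DMb1 the exchange factor that loads it. The annotation (GENCODE M21, GRCm38) places H2-Aa at chr17:34282744-34287823 on the minus strand and H2-Eb1 at chr17:34305867-34316674 on the plus strand. Class II promoters are known for a conserved box set, the last of which, the Y box, binds the factor NF-Y. The promoters below are shown because class II genes mark the dendritic-like cells. Of 11 listed class II genes, 8 were in the RefSeq promoter table (GRCm38.p6). Of these, 3 hold the letters CTGATTGG on the gene's own strand, in the window from 250 bases before to 50 after the start. Among all 32851 promoters, 4.10% hold these letters on either strand, a wider search than that for the class II genes. The shorter core GATTGG, which the longer form contains, was on either strand in 7 of the 8 and in 16.1% of all promoters. Capitals mark the Y box letters, and each sequence is 100 bases, read 5′ to 3′ along the gene's strand, from chr17:34287837-34287936 (H2-Aa, minus), chr17:34305743-34305842 (H2-Eb1, plus) and chr17:34092271-34092370 (H2-Oa, plus).
H2-Aa: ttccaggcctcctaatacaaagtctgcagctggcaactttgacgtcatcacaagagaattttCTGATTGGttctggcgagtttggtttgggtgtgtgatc
H2-Eb1: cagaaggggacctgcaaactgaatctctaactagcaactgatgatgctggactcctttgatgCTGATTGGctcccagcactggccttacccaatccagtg
H2-Oa: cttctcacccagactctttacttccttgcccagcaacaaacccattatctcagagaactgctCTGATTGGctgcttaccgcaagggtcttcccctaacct
The first letter of the box lies 51, 62 and 46 bases before the start of the respective gene. A match of letters is a description and not evidence of binding in these cells.

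Over all members, H2-Aa stood at 4891 CPM in Ctrl and 2980 CPM in IHG, a log2 ratio of -0.72 (-0.79 to -0.64). H2-Ab1 stood at 3557 and 2393 CPM (log2 ratio -0.57) and H2-Eb1 at 4010 and 2536 CPM (log2 ratio -0.66). Cd74 had a log2 ratio of -0.46 (-0.50 to -0.41). Of 10 class II genes measured (at least 20 UMIs over both libraries), 1 was higher in IHG and 9 lower, with a median log2 ratio of -0.49 and none past 2-fold. Among all 5185 measured genes, 54.6% were higher in IHG, 3.78% at least 2-fold higher and 5.28% at least 2-fold lower, with a median of 0.06. Without the cholangiocyte-gene cluster, 0 of 10 class II genes were higher, with a median of -0.60. The shares of the 4804 genes measured there were 59.4% higher, 5.04% at least 2-fold higher and 2.73% at least 2-fold lower.

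Within the cell groups the class II gap was much smaller. The grouping itself could use class II genes, since H2-Ab1, H2-Eb1 and Cd74 were kept for the clustering as dendritic markers. Sorting cells by such genes can narrow the gap within a group, and the size of that effect was not tested. H2-Aa in classical cells stood at 452 CPM (Ctrl) and 450 CPM (IHG), a log2 ratio of -0.01 (-0.33 to 0.32), and Cd74 had a log2 ratio of -0.01 (-0.16 to 0.15). Of 7 class II genes measured there, 3 were higher, against 53.8% of all 3423 genes measured in classical cells. Of those genes, 4.32% were at least 2-fold higher and 2.45% at least 2-fold lower. In dendritic-like cells, which are fewer than 50 per library, H2-Aa stood at 9932 and 7792 CPM (log2 ratio -0.35, -0.43 to -0.27), H2-Ab1 at a log2 ratio of -0.17 (-0.27 to -0.08) and Cd74 at -0.11 (-0.16 to -0.06). There 2 of 10 class II genes were higher, against 56.9% of all 2701 genes, of which 10.8% were at least 2-fold higher and 5.78% at least 2-fold lower. Of the 251423 UMIs of the IHG dendritic-like cells, 51559 came from 1 barcode, with 4.85 UMIs of H2-Aa per 10000 and no Lyz2 UMI. This barcode weighs on every summed IHG value of dendritic-like cells, here and below. Its part in the ratios and list medians was not tested. Ctss, the protease that trims the invariant chain, had a log2 ratio of -0.48 (-0.76 to -0.21) in dendritic-like cells and -0.05 (-0.24 to 0.14) in classical cells. Cd209a was at 179 UMIs in both libraries over all members, and Clec10a, a galactose lectin of these cells, at 76 and 34 UMIs (log2 ratio -1.29, -1.93 to -0.70).

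**Figure D4:**
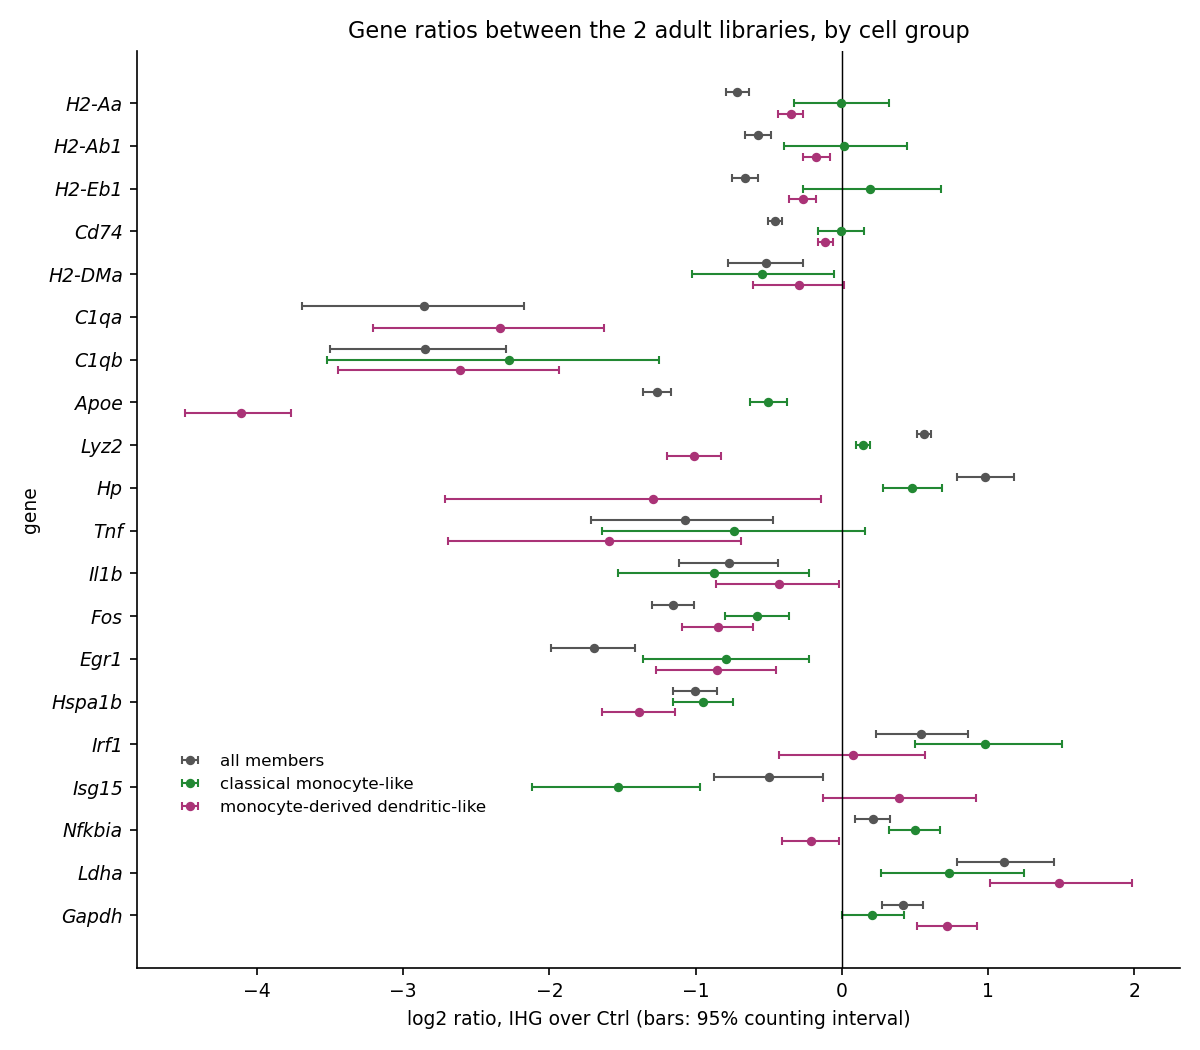
Log2 ratio of IHG over Ctrl (horizontal axis) for 20 genes in all members (grey), classical monocyte-like cells (green) and monocyte-derived dendritic-like cells (purple), with 95% counting intervals. H2-Aa lay at -0.72 over all members and at -0.01 in classical cells, while Apoe lay at -4.11 in dendritic-like cells; genes under 20 UMIs in a group are not drawn.

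Macrophage genes were lower in IHG, and they came from few cells. C1qa, C1qb and C1qc encode the recognition part of complement C1, which macrophages make to tag debris. C1qa had 121 UMIs in 13 Ctrl cells and 18 UMIs in 5 IHG cells, a log2 ratio of -2.86 (-3.69 to -2.17). C1qb had 186 and 28 UMIs (log2 ratio -2.85) and C1qc had 111 and 6 UMIs (log2 ratio -4.24). Each was detected in 15 or fewer cells of either library. C1qa is a gene of the rule, so its presence helped a cell to enter. In a finer clustering, 9 Ctrl and 5 IHG cells formed a group led by C1qa, C1qb, C1qc, Vcam1, Pf4 and Apoe and were called C1q macrophage-like, with 8 of 10 tissue macrophage markers detected. They were 7.96% (3.71 to 14.6) and 3.88% (1.27 to 8.81) of members, a log2 ratio of -1.04 (-2.96 to 0.69), so no difference in their share was detectable. All of them lay in the dendritic-like cluster. The 5 IHG cells had a median of 1155 UMIs and 7.88% mitochondrial UMIs, against 3549 UMIs and 3.78% in the 9 Ctrl cells. The part of this depth gap in the difference was not tested.

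Apoe, the lipid carrier that macrophages secrete, showed a wide difference. Over all members its UMIs numbered 2837 (Ctrl) and 1303 (IHG), a log2 ratio of -1.27 (-1.36 to -1.17), and without the C1q macrophage-like cells 1768 and 1271, a log2 ratio of -0.67 (-0.77 to -0.56). The dendritic-like cluster held 1394 UMIs in 19 Ctrl cells and 68 UMIs in 8 IHG cells (log2 ratio -4.11, -4.49 to -3.77). Of the Ctrl UMIs, 1069 belonged to the 9 C1q macrophage-like cells. With those cells left out, a choice made after seeing the data, the dendritic-like cells had 325 and 36 UMIs (log2 ratio -3.02, -3.58 to -2.54). These lay in 11 of 39 Ctrl and 5 of 30 IHG cells. Some C1q RNA stayed in this group, with C1qa at 24 UMIs in 3 Ctrl cells and 2 in 1 IHG cell. C1qb had 33 UMIs in 5 Ctrl cells and 1 in 1 IHG cell, so the group is not free of macrophage RNA. In classical cells Apoe had 951 and 1119 UMIs, which is 3386 and 2389 CPM (log2 ratio -0.50, -0.63 to -0.38). The median classical cell ran the other way, with 15.9 Apoe UMIs per 10000 in Ctrl and 18.9 in IHG, while the highest cell had 248 in Ctrl and 95.3 in IHG. Apoe RNA is also made by hepatocytes, whose gene Alb had 81 UMIs in 13 Ctrl members and 17 UMIs in 3 IHG members, or 9 and 1 UMIs without the cholangiocyte-gene cluster. Of 16 listed hepatocyte genes, 6 were measured and 1 of them, Hp, was higher in IHG, beside 54.6% of all measured genes. The list summed to 1139 CPM in Ctrl and 1211 CPM in IHG with Hp included. The part of free hepatocyte RNA in the Apoe values was not tested.

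Of 13 measured genes for complement proteins and opsonin receptors, 3 were higher in IHG and 6 were at least 2-fold lower, with a median of -0.94, beside 54.6% and 5.28% of all measured genes. In classical cells 1 of 8 was higher and 2 were at least 2-fold lower, beside 53.8% and 2.45% of all genes. In dendritic-like cells 4 of 10 were higher and 5 at least 2-fold lower, beside 56.9% and 5.78%. C3, the central complement protein, had 209 and 108 UMIs (log2 ratio -1.09), but in dendritic-like cells 68.8% of its UMIs came from 1 cell, and in classical cells it had 51 and 81 UMIs (log2 ratio -0.08, -0.59 to 0.46). Serping1, the inhibitor of C1, had 56 and 16 UMIs (log2 ratio -1.92, -2.85 to -1.13). Itgb2, the shared chain of the complement receptors CR3 and CR4, was on the other side, with 75 and 119 UMIs (log2 ratio 0.52, 0.09 to 0.96).

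Most immediate-early genes were lower in IHG. These genes, such as Fos and Egr1, are switched on within minutes of a stimulus and also during tissue dissociation. Fos had 1201 and 596 UMIs (log2 ratio -1.15, -1.30 to -1.01), with log2 ratios of -0.58 (-0.80 to -0.36) in classical and -0.85 (-1.10 to -0.60) in dendritic-like cells. Egr1 had 397 and 135 UMIs (log2 ratio -1.70), and -0.79 and -0.85 in those groups. The few cells of the cholangiocyte-gene cluster held many of these UMIs, and without them Fos had 762 and 571 UMIs (log2 ratio -0.73) and Egr1 had 216 and 129 (log2 ratio -1.06). Without the C1q macrophage-like cells, Egr1 in dendritic-like cells had 80 and 56 UMIs (log2 ratio -0.37, -0.90 to 0.13) and Fos had 278 and 176 (log2 ratio -0.52, -0.80 to -0.24). Of 21 measured immediate-early genes, 3 were higher over all members (median -0.46), 4 of 20 in classical cells (median -0.28) and 2 of 21 in dendritic-like cells (median -0.44, or -0.23 with 4 of 21 higher without the C1q macrophage-like cells). Among the 4 higher in classical cells was Junb, with 196 and 413 UMIs (log2 ratio 0.34, 0.09 to 0.59). Without the cholangiocyte-gene cluster the median over all members was -0.26. Beside the counts above, 54.6% of all measured genes were higher over all members, 53.8% in classical and 56.9% in dendritic-like cells.

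Among heat shock genes, Hspa1b was lower in IHG. Hspa1b, which encodes an HSP70 chaperone, stood at 1521 CPM in Ctrl and 758 CPM in IHG, with log2 ratios of -0.95 in classical and -1.39 in dendritic-like cells. The C1q macrophage-like cells held 272 of the Ctrl and 53 of the IHG Hspa1b UMIs. With those cells left out, Hspa1b had 731 and 499 UMIs over all members (log2 ratio -0.74, -0.91 to -0.58). In dendritic-like cells Hspa1b then had 271 and 123 UMIs (log2 ratio -0.999, -1.32 to -0.69). Hspa1a, its neighbouring and near-identical copy, had 1087 and 898 UMIs (log2 ratio -0.42), and reads may be split between the copies. Of 12 heat shock genes, 4 were higher, with a median of -0.19, in classical cells 5 of 11, with a median of -0.04, and in dendritic-like cells 5 of 12, with a median of -0.22. The shares of all measured genes higher in those sets of cells were 54.6%, 53.8% and 56.9%. Over all members Hsp90ab1 and Hspd1 lay above 0 at log2 ratios of 0.12 and 0.53.

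Inflammatory genes did not share a direction. Tnf had 67 and 35 UMIs (log2 ratio -1.07, -1.71 to -0.47), and Il1b, the main secreted interleukin-1, had 189 and 122 UMIs (log2 ratio -0.77, -1.12 to -0.44). Icam1, the adhesion ligand of leukocyte integrins, had 100 and 58 UMIs (log2 ratio -0.92), with 27 and 36 UMIs in classical cells (log2 ratio -0.33, -1.08 to 0.45) and 69 and 17 in dendritic-like cells (log2 ratio -1.75). Nfkbia, the inhibitor that NF-kB itself induces, had 384 and 905 UMIs in classical cells (log2 ratio 0.50, 0.33 to 0.67) and 506 and 370 UMIs in dendritic-like cells (log2 ratio -0.21, -0.41 to -0.02). Birc3, another NF-kB target, had 13 and 52 UMIs in classical cells (log2 ratio 1.22, 0.36 to 2.26). Of 22 NF-kB targets measured, 8 were higher over all members (median -0.16, or -0.07 with 11 of 22 higher without the C1q macrophage-like cells), 12 of 20 in classical cells (median 0.09) and 4 of 20 in dendritic-like cells (median -0.42). All measured genes were higher in 54.6% over all members, 53.8% in classical cells and 56.9% in dendritic-like cells. The difference between the cell groups was not tested. Nor was the part of the 1 barcode that held 51559 of the 251423 IHG dendritic-like UMIs.

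Interleukin-1 and inflammasome genes were split as well. Il1rn had 64 and 40 UMIs over all members (log2 ratio -0.81) and 49 and 36 UMIs in classical cells (log2 ratio -1.18, -1.85 to -0.53). The Il1rn-led cluster made up 20 of the 60 Ctrl and 22 of the 92 IHG classical cells. The part of this mix in the Il1rn ratio was not tested. Pycard, the adaptor that joins inflammasome sensors to caspase 1, had 73 and 147 UMIs (log2 ratio 0.86, 0.45 to 1.29), with log2 ratios of 0.60 (0.04 to 1.20) in classical and 1.02 (0.36 to 1.73) in dendritic-like cells. Nlrp3, a sensor, had 86 and 148 UMIs (log2 ratio 0.64, 0.25 to 1.04). Of 12 measured genes of this list, 8 were higher, with a median of 0.32, but in classical cells 5 of 11 were, with a median of -0.23. Of all measured genes, 54.6% were higher over all members and 53.8% in classical cells.

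Interferon response genes are given by cell group. Isg15, a ubiquitin-like protein that interferon induces, had 73 and 42 UMIs in classical cells (log2 ratio -1.53, -2.12 to -0.97) and 61 and 68 UMIs in dendritic-like cells (log2 ratio 0.39, -0.13 to 0.92). Irf1, a transcription factor of the interferon-gamma response, had 45 and 149 UMIs in classical cells (log2 ratio 0.98) and 74 and 66 in dendritic-like cells (log2 ratio 0.07). Cxcl9, a T cell chemokine that interferon-gamma induces, had 89 UMIs in 5 classical cells of Ctrl and 11 UMIs in 1 of IHG, with 38% of them in 1 cell. Over all members 21 of 29 such genes were higher (median 0.17), in classical cells 9 of 23 (median -0.12) and in dendritic-like cells 16 of 19 (median 0.39). The shares of all measured genes that were higher were 54.6%, 53.8% and 56.9%. The difference between the groups was not tested.

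Some CC chemokines were lower in IHG, and CXC chemokines shared no direction. Ccl3 and Ccl4, chemokines that draw leukocytes to inflamed tissue, had 252 and 153 UMIs (log2 ratio -0.86, -1.16 to -0.57) and 856 and 676 UMIs (log2 ratio -0.48, -0.63 to -0.34). The C1q macrophage-like cells held 354 of the Ctrl and 93 of the IHG Ccl4 UMIs. Without them Ccl4 had 502 and 583 UMIs (log2 ratio 0.02, -0.15 to 0.20), with a log2 ratio of 0.54 (0.32 to 0.77) in dendritic-like cells, and Ccl3 had 188 and 143 (log2 ratio -0.59, -0.91 to -0.27). Ccl2, the ligand of Ccr2, had 304 and 272 UMIs over all members (log2 ratio -0.30), with log2 ratios of -0.64 (-0.92 to -0.37) in classical and -0.84 (-1.42 to -0.30) in dendritic-like cells. Ccl6 was higher over all members, with 366 and 564 UMIs (log2 ratio 0.48, 0.29 to 0.67), but in dendritic-like cells it had 90 and 38. Of 10 CC chemokines measured, 4 were higher (median -0.29), and of 6 CXC chemokines 3 were (median -0.08), beside 54.6% of all measured genes. In classical cells 3 of 5 CXC chemokines were higher (median 0.14), beside 53.8%. Cxcl2, a neutrophil chemokine, stood at 1683 and 1921 CPM (log2 ratio 0.19, 0.08 to 0.31). Of 13 genes for chemokine receptors and trafficking, 10 were higher (median 0.41). In classical cells 9 of 11 were (median 0.05), and in dendritic-like cells 9 of 11 (median 0.36). All measured genes had medians of 0.06, 0.04 and 0.12 in these sets of cells, with 54.6%, 53.8% and 56.9% higher. Ccr1 had 82 and 135 UMIs (log2 ratio 0.57, 0.17 to 0.99), and Selplg, the selectin ligand by which leukocytes roll on vessels, had 72 and 134 UMIs (log2 ratio 0.75, 0.33 to 1.19).

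**Figure D5:**
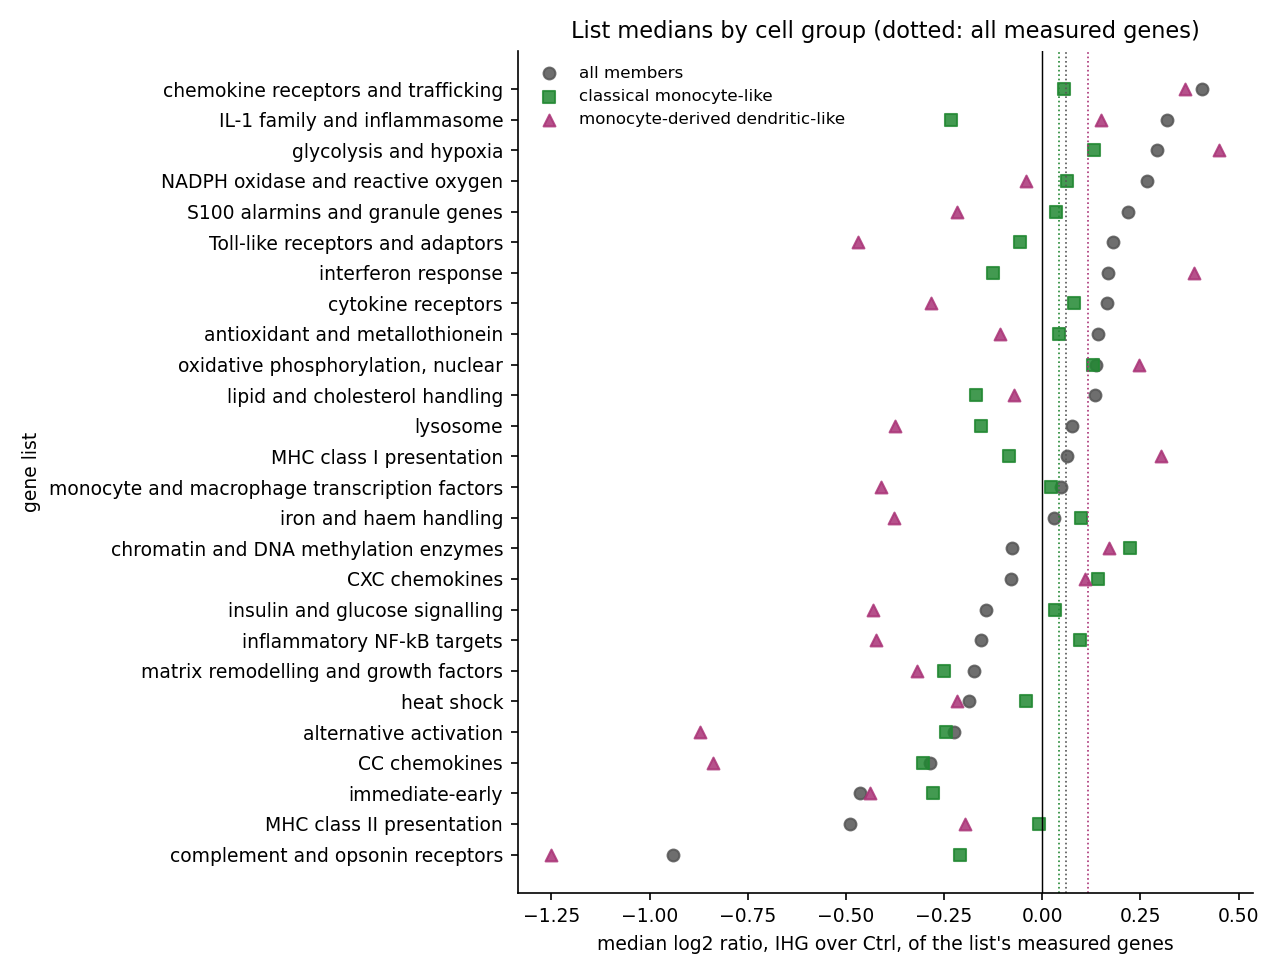
Median log2 ratio of IHG over Ctrl (horizontal axis) of each gene list in all members (grey circles), classical monocyte-like cells (green squares) and dendritic-like cells (purple triangles), for lists with at least 5 measured genes in each, leaving out the proliferation list and those for RNA of other cells; dotted lines mark the median of all measured genes (0.06, 0.04 and 0.12). The class II list lay at -0.49 over all members and at -0.01 in classical cells.

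Among classical monocyte genes, Hp was higher in IHG. Hp binds free haemoglobin and is also an acute-phase gene of hepatocytes. It had 317 UMIs in 50 Ctrl cells and 691 UMIs in 81 IHG cells (log2 ratio 0.98, 0.79 to 1.18). In classical cells alone it had 293 and 682 UMIs (log2 ratio 0.48, 0.28 to 0.68), and the median per cell was 6.21 UMIs per 10000 in Ctrl and 9.64 in IHG. The Hp-led cluster made up 40 of the 60 Ctrl and 70 of the 92 IHG classical cells. The part of this mix in the Hp ratio was not tested. Of the other hepatocyte genes, whose list holds Hp, few were measured in classical cells. With Hp counted, 2 of 3 were higher there (median 0.21), beside 53.8% of all genes measured in classical cells. The part of hepatocyte RNA in the Hp values was not tested. Chil3 had 503 and 708 UMIs in classical cells (log2 ratio -0.25, -0.41 to -0.08), and Slpi, a protease inhibitor, 431 and 411 UMIs (log2 ratio -0.81). Lyz2 was at 17951 and 19836 CPM in classical cells (log2 ratio 0.14, 0.09 to 0.19). In dendritic-like cells Lyz2 had 843 and 355 UMIs (log2 ratio -1.01, -1.19 to -0.83), and 280 of the Ctrl UMIs lay in the C1q macrophage-like cells. Without those cells Lyz2 had 563 and 350 UMIs there (log2 ratio -0.55, -0.74 to -0.35). The IHG total still included the barcode of 51559 UMIs without Lyz2, whose part was not tested.

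Hmox1 was higher in IHG among haem and iron genes. Hmox1, the enzyme that opens the haem ring, had 389 and 718 UMIs over all members (log2 ratio 0.74, 0.56 to 0.92) and a log2 ratio of 0.28 (0.09 to 0.47) in classical cells. Ferritin RNA was close to even over all members for Fth1 (log2 ratio 0.03) and lower for both chains in classical cells, at -0.18 (-0.22 to -0.14) for Fth1 and -0.34 (-0.41 to -0.28) for Ftl1. Of 11 measured genes for iron and haem handling, 6 were higher, with a median of 0.03, close to the 54.6% and 0.06 of all measured genes. Among 24 lysosome genes 15 were higher over all members (median 0.07), but 8 of 23 were in classical cells (median -0.16) and 6 of 22 in dendritic-like cells (median -0.38). Of all genes measured in those groups, 53.8% and 56.9% were higher. Cd68, a lysosomal membrane protein of macrophages, had 85 and 197 UMIs in classical cells (log2 ratio 0.47, 0.10 to 0.86).

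Over all members most glycolysis genes were higher in IHG. Ldha, which turns pyruvate to lactate, had 110 and 263 UMIs (log2 ratio 1.11, 0.79 to 1.45), with 49 and 137 in classical cells (log2 ratio 0.74, 0.26 to 1.25) and 52 and 124 in dendritic-like cells (log2 ratio 1.48, 1.01 to 1.99). Gapdh had 698 and 1028 UMIs (log2 ratio 0.42, 0.28 to 0.56), and Eno1 had 109 and 214 (log2 ratio 0.83, 0.49 to 1.18). Of 18 measured genes, 15 were higher over all members (median 0.29), 10 of 16 in classical cells (median 0.13) and 10 of 13 in dendritic-like cells (median 0.45). All measured genes were higher in 54.6%, 53.8% and 56.9%, so the classical share lay near its background. In the dendritic-like group 30.7% of the Ldha UMIs came from 1 cell. Nuclear genes of oxidative phosphorylation were higher in 22 of 28 over all members (median 0.14) and in 21 of 28 in classical cells (median 0.13), a small shift beside the median of 0.06 for all genes.

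Several of the most extreme genes rested on single barcodes. Gzma, the granzyme of NK cells, had 3 and 375 UMIs, and 98.9% of all its UMIs came from 1 cell. The same holds for Msmp, with 118 and 0 UMIs and 98.3% of them in 1 cell, and in part for the histone gene Hist1h2ap and the cycle gene Stmn1, where 1 cell held 58.0% and 48.9%. Of 9 cell cycle genes measured, 7 were higher (median 0.66), beside 54.6% of all measured genes. The cycling marker Mki67, however, was detected in 7 Ctrl and 4 IHG cells. Away from such cells, Anapc13, a subunit of the anaphase-promoting complex, had 18 and 75 UMIs in classical cells (log2 ratio 1.29, 0.56 to 2.15), and Cd24a, a surface glycoprotein, had 13 and 60 (log2 ratio 1.43, 0.59 to 2.46). Rgs1, a brake on G-protein signalling, had 15 UMIs in 6 classical cells of Ctrl and 75 in 25 of IHG (log2 ratio 1.55, 0.77 to 2.49), and its family member Rgs2 had 102 and 77 (log2 ratio -1.14, -1.59 to -0.70).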

How the data were processed

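Single cells from 4 libraries, 1 pooled library per group, were captured with a 10x 3′ kit. The authors deposited whole-number UMI counts per gene and barcode for 32285 genes, and per the file headers the tool was Cell Ranger 5.0.0. The submitters' processing notes give mm10 as the build and list Seurat without a step. Counts are not normalized. Members were chosen by the rule given above from their own counts, and the members and gene lists were chosen with earlier results of these data known. UMIs were summed over members per library, scaled to CPM of that sum, and compared as a log2 ratio of IHG over Ctrl with 0.5 added to each count. Genes with at least 20 UMIs over both libraries were measured. With 1 library per group no test was possible. Members were clustered with the Leiden method (2000 variable genes, 20 principal components, 15 neighbours, resolution 0.6, with 0.3 and 1.0 as alternatives), using scanpy 1.11.5, leidenalg 0.10.2, igraph 0.11.9, numpy 2.4.6, scipy 1.17.1 and pandas 2.3.3 in Python 3.11.15, with figures by matplotlib 3.10.9. The doublet caller Scrublet marked almost no barcode and was judged not to have worked, so no doublets were removed. Genes named are those of the rule, marker genes, up to 8 per list with at least 20 CPM in 1 library, the 12 highest and 12 lowest ratios over all members (6 and 6 within cell groups) among genes with at least 50 UMIs and 100 CPM in 1 library, and the 10 leading genes of each cluster. The scripts were tested on simulated data. Alternatives were 4 rule genes, at most 10% mitochondrial counts, thinning to 1000 UMIs per cell, means of per-cell values, 1 added to each count, a minimum of 1 UMI, and other scaling and clustering settings. Leaving out the cholangiocyte-gene cluster or the C1q macrophage-like cells, the dendritic-like cells alone, and clustering without 690 genes were chosen after seeing the data.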

Additional observations from a re-analysis of the deposited data

Results flagged for a closer look

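For 3 gene lists the members of the adult libraries and the fetal cells found by the same rule had medians on opposite sides of 0 that were both at least 0.3 away from it, and the difference between ages was not tested. Further lists also had medians of opposite sign, with 1 or both nearer to 0. The median log2 ratio of chemokine receptor and trafficking genes was 0.41 in the adult members and -0.87 in the fetal cells, a difference of 1.28. That of hepatocyte genes was -1.04 (6 genes measured) and 1.04 (12 genes), a difference of -2.08, and the adult median was -0.23 (3 genes) without the cholangiocyte-gene cluster. That of B cell genes was 0.86 (2 genes) and -0.34 (3 genes), a difference of 1.20. The fetal cells under the rule differed in kind between their libraries. C1qa was detected in 2.52% of the fetal Ctrl and 49.7% of the fetal IHG cells, and Ccr2 in 65.5% and 27.7%. The part of this mix in the fetal medians was not tested.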

How the results depend on the processing

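No paired analysis was possible because each group is 1 library, and for the same reason no replicate could be left out. The count of genes at least 2-fold higher (196) was 59 after thinning each cell to 1000 UMIs. The count at least 2-fold lower (274) was 36 after thinning, 125 with at least 4 rule genes, 131 without the cholangiocyte-gene cluster, 84 in classical cells and 156 in dendritic-like cells; fewer genes were measured in each. The MHC class II median (-0.49) was -0.94 with 4 rule genes, -0.84 after thinning, -0.00779 in classical and -0.20 in dendritic-like cells. The immediate-early median (-0.46) was -0.11 from means of per-cell values and -0.26 without the cholangiocyte-gene cluster. The interleukin-1 and inflammasome median (0.32) was -0.17 after thinning and -0.23 in classical cells. The proliferation median (0.66) was -0.0141 from per-cell means, -0.39 with 4 rule genes, -0.31 after thinning and 1.31 in dendritic-like cells. Hepatocyte genes (-1.04) were at 0.29 after thinning and 0.21 in classical cells. T and NK cell genes (1.96) were at -0.52 with 4 rule genes, -0.10 after thinning, -0.14 with a minimum of 1 UMI and -0.30 in classical cells. Among genes, C3 was 0.44, Stmn1 -0.69 and Ly6a -0.47 with 4 rule genes, Ccl24 0.83 from per-cell means and 0.91 after thinning, Birc5 -0.75 and Klhl24 -0.0695 from per-cell means, and Txnip 0.10 in dendritic-like cells. Apart from fewer genes or cells in a setting, the cause was not tested.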
